A study of Mus musculus with 10 samples.

Results

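The genes described here carry the cyclic nucleotide signals that hold mouse oocytes in meiotic arrest. They were taken by symbol from the known pathway, with earlier results of these data known, and all 7 (Nppc, Npr2, Gpr3, Gnas, Adcy3, Adcy9 and Pde3a) were found among the 22891 genes of the deposited table and passed the filter on low values that left 15629 genes for testing. Whole ovaries were taken at 3 weeks of age, without hormone stimulation, from mice whose strain is given as C57/Bl6/N;129SvEv7. The series set 5 libraries of genotype Control against 5 of genotype Uba3 cKO, called cKO-labelled here. UBA3 is part of the enzyme that activates the ubiquitin-like protein NEDD8, which modifies cullins. The labels used here name neither the promoter or cell type that drives the deletion nor the alleles the controls carry. They do not state that each ovary is from its own animal, and the tests therefore cover only the spread among these libraries, which may be technical. Levels are the authors' normalized values on a log2 scale, 1 per gene and library.

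A fully grown oocyte stays in prophase of meiosis while its cyclic AMP is high. The oocyte makes cyclic AMP itself, through the receptor GPR3, the stimulatory G protein encoded by Gnas and adenylyl cyclases, and breaks it down with the phosphodiesterase PDE3A. Granulosa cells secrete C-type natriuretic peptide, the product of Nppc, which acts on the guanylyl cyclase NPR2. The cyclic GMP formed there passes through gap junctions into the oocyte and inhibits PDE3A, and luteinizing hormone ends the arrest by lowering this cyclic GMP.

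The upstream sequences of the 3 genes that start the cyclic GMP and cyclic AMP branches, the ligand, its receptor and the oocyte receptor, are shown to compare the promoters of genes with very unlike levels in these ovaries. Each run is the 250 bases before the RefSeq start on GRCm38.p6, 5′ to 3′ on the gene's strand. Capitals mark TGACG, the half-site bound by cyclic AMP response factors, the longer TGACNTCA, and TATAAA, each searched on both strands.
Nppc (chr1:86670574-86670823, - strand): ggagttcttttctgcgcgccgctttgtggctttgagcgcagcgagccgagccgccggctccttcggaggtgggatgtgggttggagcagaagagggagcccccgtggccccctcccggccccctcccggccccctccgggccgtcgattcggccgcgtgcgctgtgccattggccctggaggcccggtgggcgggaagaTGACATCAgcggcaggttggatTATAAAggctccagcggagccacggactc
Npr2 (chr4:43631685-43631934, + strand): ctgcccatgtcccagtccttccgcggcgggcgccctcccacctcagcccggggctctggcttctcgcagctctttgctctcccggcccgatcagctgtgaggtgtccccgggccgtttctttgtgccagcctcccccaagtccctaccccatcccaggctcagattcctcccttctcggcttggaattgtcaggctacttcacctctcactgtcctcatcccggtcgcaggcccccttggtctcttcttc
Gpr3 (chr4:133212537-133212786, - strand): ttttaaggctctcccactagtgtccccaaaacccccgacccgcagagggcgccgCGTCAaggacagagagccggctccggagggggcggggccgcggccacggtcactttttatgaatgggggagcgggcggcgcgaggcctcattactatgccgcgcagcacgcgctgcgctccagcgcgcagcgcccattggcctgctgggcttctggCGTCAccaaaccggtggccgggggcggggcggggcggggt
In Nppc the capitals are TGACATCA, whose first base lies 51 bases before the start, and TATAAA, 29 bases before it. Gpr3 had the half-site in its reverse form, CGTCA, 196 and 40 bases before the start, and no TATAAA. Npr2 had none of the 3. Of 32851 RefSeq windows of the same length, 17.8% held the half-site, 7.49% TGACNTCA and 12.4% TATAAA. A match describes the letters only. The longer motif was added after the sequences were seen. RefSeq windows were matched for 6 of the 7 genes. Among those not shown, the half-site also lay upstream of Adcy9 and in some windows of Gnas. TATAAA in its reverse form lay in some windows of Gnas, and the Adcy3 windows had none of the 3.

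The ovaries carried the markers of follicles in both groups. The mean of 32 oocyte markers, which include Gdf9 and the zona pellucida genes, lay between 9.25 and 9.84 log2 units in control libraries and between 9.09 and 9.79 in cKO-labelled ones. The mean of 22 granulosa markers lay between 12.43 and 12.62 and between 12.49 and 12.65. Theca markers ran from 8.66 to 9.49 and from 8.63 to 9.19, stroma from 9.77 to 10.63 and from 9.84 to 10.67, endothelium from 7.19 to 7.80 and from 7.17 to 8.07, smooth muscle from 7.93 to 8.55 and from 7.63 to 8.45, immune cells from 5.50 to 5.92 and from 5.47 to 5.81, and oviduct from 5.20 to 5.43 and from 5.18 to 5.87. Uba3 itself had a mean of 10.12 log2 units in either group (SD 0.18 and 0.069, n = 5 each), and a gene-level value from a whole organ shows neither which exons nor which cells lost the gene, so it does not check the labels. Control replicate 3 stood apart from the other libraries in the slope of its values on transcript length, at -0.15 log2 units per doubling of length where the other 9 lay between -0.060 and 0.058. In RNA from a whole organ, fewer cells of a type and less RNA per cell cannot be told apart.

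No member passed the test between the groups. All 7 were higher on average in cKO-labelled ovaries, by 0.037 to 0.19 log2 units, and in all 7 the ranges of the groups overlapped. By limma 0 of 7 had an adjusted p under 0.05 (0.00% of the 15629 genes tested did), and 0 of 7 had an unadjusted p under 0.05, where the share of all genes tested was 1.79%. The groups did not overlap in 0.320% of all genes tested and in 0 of the 7. The median difference of the members was 0.11 log2 units and that of all genes tested 0.00034, and 50.2% of them had their higher mean in cKO-labelled ovaries. Over all genes tested, limma called 0 at an adjusted p of 0.05 and 280 had an unadjusted p under 0.05. Means of stromal, endothelial and oviduct markers were also mostly higher in cKO-labelled ovaries, in 11 of 12, 10 of 11 and 6 of 6 genes. Those of immune markers were mostly lower, in 8 of 10. Oocyte markers were higher in 13 of 32 genes, granulosa in 13 of 22, theca in 4 of 11 and smooth muscle in 4 of 10. The part of these markers in the members' shared direction was not tested.

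**Figure D1:**
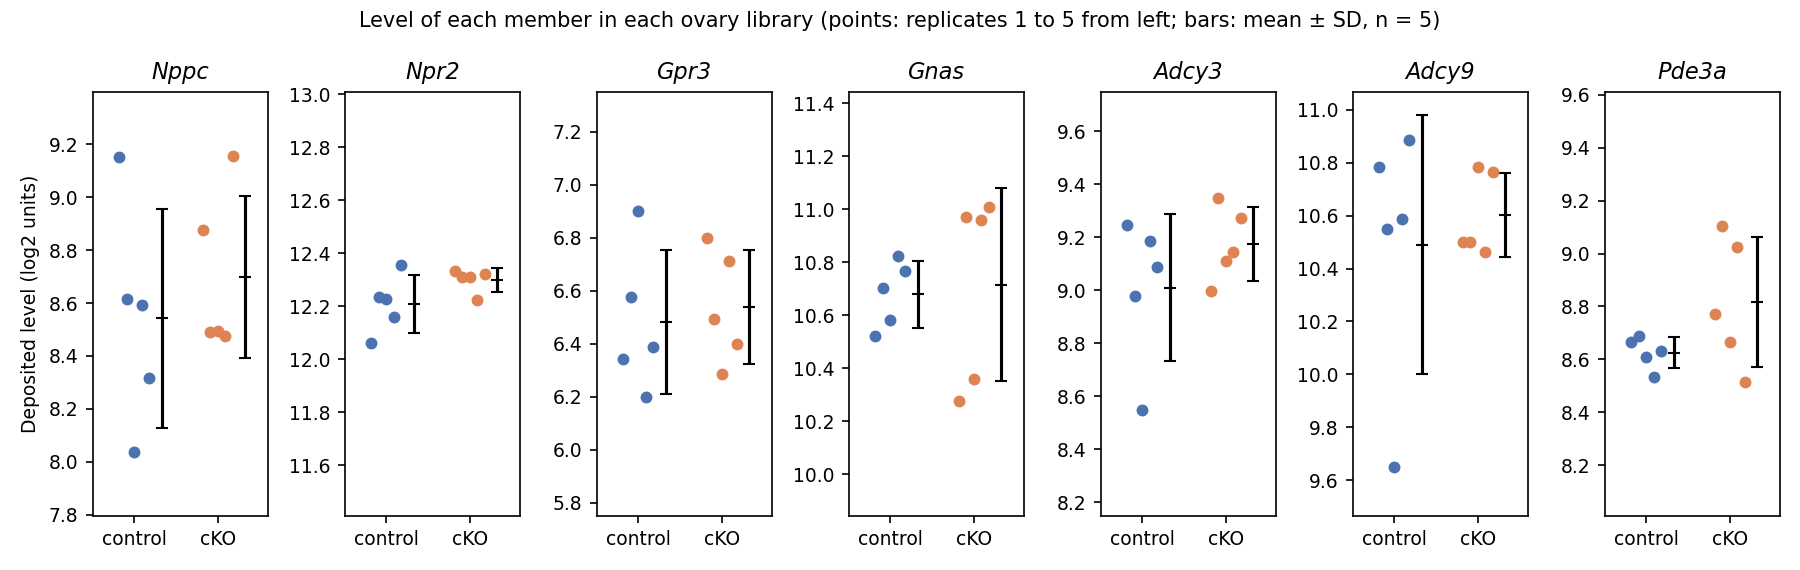
Deposited log2 level (vertical axes, all spanning the same number of log2 units) of the 7 members in each control (blue) and Uba3 cKO (orange) library, with replicates 1 to 5 from left to right and bars for the mean ± SD (n = 5). The groups overlap in every panel, Npr2 has the narrowest range over the 10 libraries, and control replicate 3 is the lowest library for Adcy9 at 9.65.

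Nppc (ENSMUSG00000026241, chromosome 1), the ligand precursor, was variable in both groups. Its levels in control replicates 1 to 5 were 9.15, 8.62, 8.04, 8.59 and 8.32 log2 units. The cKO-labelled replicates 1 to 5 had 8.88, 8.49, 8.49, 8.48 and 9.16. One library of each group reached about the same high level, control replicate 1 and cKO-labelled replicate 5, and the lowest of the 10 was control replicate 3. Means were 8.54 ± 0.41 (SD, n = 5) and 8.70 ± 0.31 (SD, n = 5), a difference of 0.16 log2 units with a standard error of 0.19 (limma adjusted p = 0.9999, exact two-sided permutation p = 0.500). The 95% interval of the fold, the unlogged difference on the authors' scale, ran from 0.837 to 1.48, the widest of the 7 together with that of Adcy9. Without control replicate 1 the difference was 0.31, and without control replicate 3 it was 0.030.

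Npr2 (ENSMUSG00000028469, chromosome 4), the receptor that makes cyclic GMP in granulosa cells, had the narrowest range of the members over the 10 libraries. Its levels were 12.06, 12.23, 12.23, 12.16 and 12.36 in controls. In the cKO-labelled group they were 12.33, 12.31, 12.31, 12.22 and 12.32. Replicate 4 was the lowest of that group, all 5 lay inside the range of the controls, and the whole range over 10 libraries was 1.23-fold. The difference was 0.091 log2 units (standard error 0.062, adjusted p = 0.9999 by limma, exact two-sided permutation p = 0.127), and the 95% interval of the fold, 0.970 to 1.17, is the narrowest of the 7. The log2 ratio of Nppc to Npr2 within a library differed by 0.065 between the groups, less than its SD of 0.50 in controls and 0.29 in cKO-labelled ovaries (n = 5 each); gene length cancels from such a difference. Annotated exons of Npr2 share 266 bases with an antisense gene, Gm12473, at a mean level of 8.23, and the counting is not stated to use strand.

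Gpr3 (ENSMUSG00000049649, chromosome 4), the receptor that drives cyclic AMP synthesis in the oocyte without a known ligand, had SDs in the control and cKO-labelled groups of 0.27 and 0.21 log2 units (n = 5 each). In controls its levels were 6.34, 6.58, 6.90, 6.20 and 6.39 log2 units. In cKO-labelled ovaries they were 6.80, 6.49, 6.29, 6.71 and 6.40. Every cKO-labelled library lay inside the range of the controls. The difference was 0.058 log2 units (standard error 0.14, adjusted p = 0.9999 by limma, exact two-sided permutation p = 0.714). Its exons share 204 bases, 7.46% of their length, with Cd164l2 on the opposite strand, which stood higher, at 8.79 ± 0.39 (SD, n = 5) and 8.71 ± 0.28 (SD, n = 5), and without strand the reads of that stretch cannot be told apart.

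Gnas (ENSMUSG00000027523, chromosome 2), which encodes the alpha subunit of the stimulatory G protein, spread further in cKO-labelled ovaries than in controls, a difference in spread that was not tested. Controls stood at 10.52, 10.70, 10.58, 10.82 and 10.76 log2 units. The cKO-labelled levels were 10.28, 10.97, 10.36, 10.96 and 11.01. Replicates 1 and 3 of the cKO-labelled group lay below every control and the other 3 above every control, so the means were close at 10.68 ± 0.13 (SD, n = 5) and 10.72 ± 0.36 (SD, n = 5). The difference was 0.037 log2 units (standard error 0.14, adjusted p = 0.9999 by limma, exact two-sided permutation p = 0.841). Gnas is a complex imprinted locus, with 24 annotated transcripts, and a gene-level value adds them up. On the opposite strand Gm20721, which the deposited values do not include, shares 13.1% of the Gnas exon length. Nespas, at a mean level of 2.71, shares 8.83%.

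Adcy3 (ENSMUSG00000020654, chromosome 12), an adenylyl cyclase found in rodent oocytes, stood at 9.25, 8.98, 8.55, 9.19 and 9.09 log2 units in controls. The cKO-labelled ovaries had 8.996, 9.35, 9.11, 9.15 and 9.27. Control replicate 3 was the lowest of the 10 libraries, and 2 cKO-labelled libraries lay above every control. The difference was 0.17 log2 units (standard error 0.12, adjusted p = 0.9999 by limma, exact two-sided permutation p = 0.278), and without control replicate 3 it was 0.050. Cenpo, a centromere gene on the opposite strand, shares 22.1% of the exon length of Adcy3; its level differed by 0.015 log2 units (standard error 0.078), and its r to Adcy3 was -0.12 (rho -0.20, permutation p = 0.739 and 0.585; adjusted p = 0.814 for r; -0.61 without the 2 farthest libraries).

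Adcy9 (ENSMUSG00000005580, chromosome 16), a cyclase of the same membrane-bound family, had the widest range of the 7. Its control levels were 10.78, 10.55, 9.65, 10.59 and 10.88 log2 units. In the cKO-labelled libraries they were 10.50, 10.50, 10.78, 10.46 and 10.77. All 5 lay inside the range of the controls, whose lowest value, replicate 3, was far from the other 4. The difference was 0.11 log2 units (standard error 0.19, adjusted p = 0.9999 by limma, exact two-sided permutation p = 0.833), and without control replicate 3 it turned to -0.098. The log2 ratio of Adcy3 to Adcy9 within a library differed by 0.053 between the groups, with SDs of 0.26 and 0.20 (n = 5 each).

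Pde3a (ENSMUSG00000041741, chromosome 6), the phosphodiesterase that destroys cyclic AMP in the oocyte, had a difference that rested in part on cKO-labelled replicates 2 and 4. Controls were tight, at 8.67, 8.69, 8.61, 8.54 and 8.63 log2 units. The cKO-labelled ones stood at 8.77, 9.10, 8.67, 9.02 and 8.52. Replicates 1, 2 and 4 of the cKO-labelled group lay above every control, and replicate 5 lay below every control. Means were 8.63 ± 0.059 (SD, n = 5) and 8.82 ± 0.25 (SD, n = 5), a difference of 0.19 log2 units with a standard error of 0.105 (limma unadjusted p = 0.0939, adjusted p = 0.9999, exact two-sided permutation p = 0.167). The 95% interval of the fold was 0.975 to 1.34. The difference was 0.12 log2 units without cKO-labelled replicate 2, 0.14 without replicate 4 and 0.27 without replicate 5 of that group. The log2 ratio of Pde3a to Gpr3 within a library differed by 0.13 between the groups, with SDs of 0.26 and 0.25 (n = 5 each). Annotated exons of Pde3a share 741 bases with an antisense gene, Gm28523, at a mean level of 1.895.

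**Figure D2:**
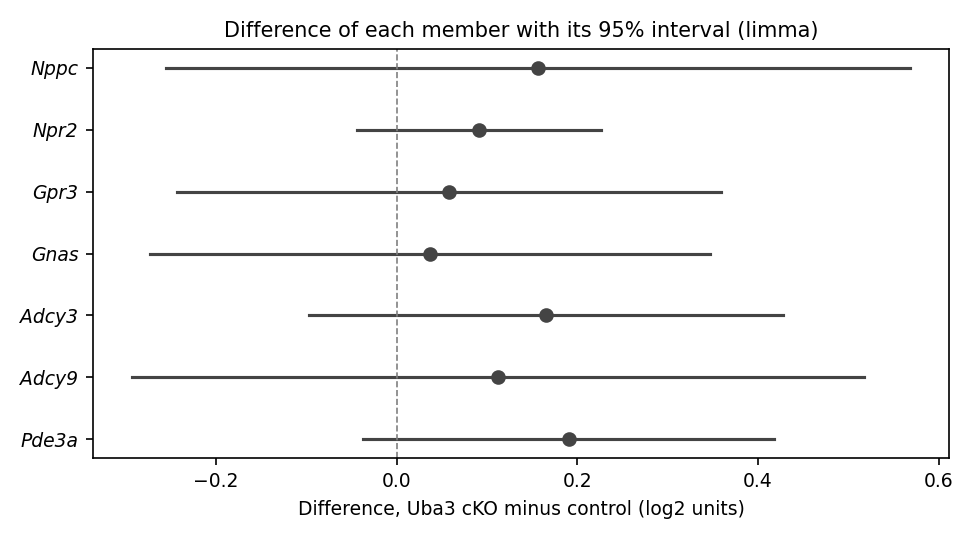
Difference of each member between cKO-labelled ovaries and controls (horizontal axis, log2 units), with the limma estimate as a point and its 95% interval as a line. All 7 points lie above 0, from 0.037 for Gnas to 0.19 for Pde3a, and all 7 intervals include 0.

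Levels of different members were compared per kilobase of exon. On that log2 scale Npr2 was highest at 10.03, followed by Nppc at 8.56, Adcy9 at 8.17, Gnas at 7.21, Adcy3 at 6.45, Gpr3 at 5.06 and Pde3a at 5.05, as means over 10 libraries. On exon length the receptor thus stood 2.77-fold above its ligand, a gap that widened with the longest transcript, where Npr2 stood at 10.38. Nppc lay above Adcy9 in 9 of 10 libraries, by 0.39 ± 0.32 log2 units (SD, n = 10). Gpr3 and Pde3a were indistinguishable, with a gap of 0.0091 ± 0.25 (SD, n = 10) and Gpr3 above in 4 of 10 libraries, whereas every other neighbouring pair kept its order in 10 of 10. Exon length matters most for Gnas, whose exons span 11186 bases while its longest transcript has 3947; with the longest transcript of each gene, Gnas stood second at 8.72, ahead of Nppc at 8.56.

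Among libraries, Gpr3 was higher where the oocyte markers were higher. Libraries fell unevenly along the marker mean: 4 lay between 9.09 and 9.27, control replicate 5 at 9.53 and 5 between 9.71 and 9.84. Pearson's r was 0.81 over 10 libraries (permutation p = 0.00645, adjusted p = 0.0451 over 14 relations of the 7 members to 2 marker lists) and Spearman's rho was 0.76 (permutation p = 0.0152, adjusted p = 0.0955). Without the 2 libraries farthest from the median marker mean, control replicate 1 and cKO-labelled replicate 5, r was 0.87 (permutation p = 0.00407), and with group means removed it was 0.82. Leaving out 1 library, r lay between 0.78 and 0.87. Its adjusted p stayed under 0.05 in 3 of 10 such settings and rose past it on omitting control replicate 1, 3, 4 or 5, and likewise cKO-labelled replicate 1, 2 or 3. Neither end of the marker mean holds 6 libraries, so the relation could not be tested within each. Cd164l2 on the other strand had an r of 0.90 to Gpr3 (rho 0.81, permutation p = 0.00052 for r and 0.0074 for rho, adjusted p = 0.00166 for r; 0.74 without the 2 farthest libraries) and of 0.88 to the same marker mean (rho 0.92, permutation p = 0.00083 for r and 0.00052 for rho, adjusted p = 0.00166 for r over 4 relations of neighbours; 0.84 without the same 2 libraries), and its part in the Gpr3 value was not tested.

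The other member best known from the oocyte, Pde3a, had an r of 0.57 to the oocyte markers (rho 0.53, permutation p = 0.0900 and 0.123, adjusted p = 0.160 for r). Among controls its level hardly moved, from 8.54 to 8.69, while their oocyte marker mean ran from 9.25 to 9.84. The cyclases had negative values, with r of -0.52 for Adcy3 (rho -0.71, permutation p = 0.105 and 0.0273, adjusted p = 0.160 and 0.0955) and -0.58 for Adcy9 (rho -0.66, permutation p = 0.0433 and 0.0443, adjusted p = 0.152 and 0.124). None of these 3 passed adjustment for r. Without the 2 farthest libraries r was 0.46 for Pde3a, -0.38 for Adcy3 and -0.50 for Adcy9. A negative value was not particular to the cyclases. Nppc had an r of -0.55 (rho -0.53, permutation p = 0.103 and 0.124, adjusted p = 0.160 for r), which was -0.055 without these 2 libraries. Npr2 had an r of 0.19 and Gnas one of -0.077.

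Adcy3 had the highest correlation with the granulosa markers, whose mean ran only from 12.43 to 12.65 log2 units. Its r was 0.84 (permutation p = 0.00232, adjusted p = 0.0325) and its rho 0.71 (permutation p = 0.0265, adjusted p = 0.0955). The relation rests on the libraries with the lowest marker means: without control replicate 3 and cKO-labelled replicate 1, r was 0.55 (permutation p = 0.158). Leaving out 1 library, r lay between 0.68 without control replicate 3 and 0.89 without cKO-labelled replicate 4, and its adjusted p exceeded 0.05 on omitting control replicate 1, 3, 4 or 5, and likewise cKO-labelled replicate 1 or 3. Gnas had an r of 0.66 (rho 0.72, permutation p = 0.0372 and 0.0231, adjusted p = 0.152 and 0.0955; r = 0.62 without the same 2 libraries). The cKO-labelled replicates with the low Gnas levels, 1 and 3, had granulosa marker means of 12.49 and 12.55, and the other 3 lay between 12.60 and 12.65. Control replicates 1 to 5 had marker means of 12.61, 12.57, 12.43, 12.62 and 12.55. Control replicate 1, with the lowest control Gnas level (10.52), was thus not low in these markers. These libraries were compared after their values were seen. Nppc, which mural granulosa cells make, had an r of 0.53 (rho 0.33, permutation p = 0.114 and 0.350, adjusted p = 0.160 and 0.489; r = 0.54 without the same 2 libraries), and Npr2 one of -0.27 (rho -0.37, permutation p = 0.440 and 0.295, adjusted p = 0.561 and 0.489; r = -0.39 without them).

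**Figure D3:**
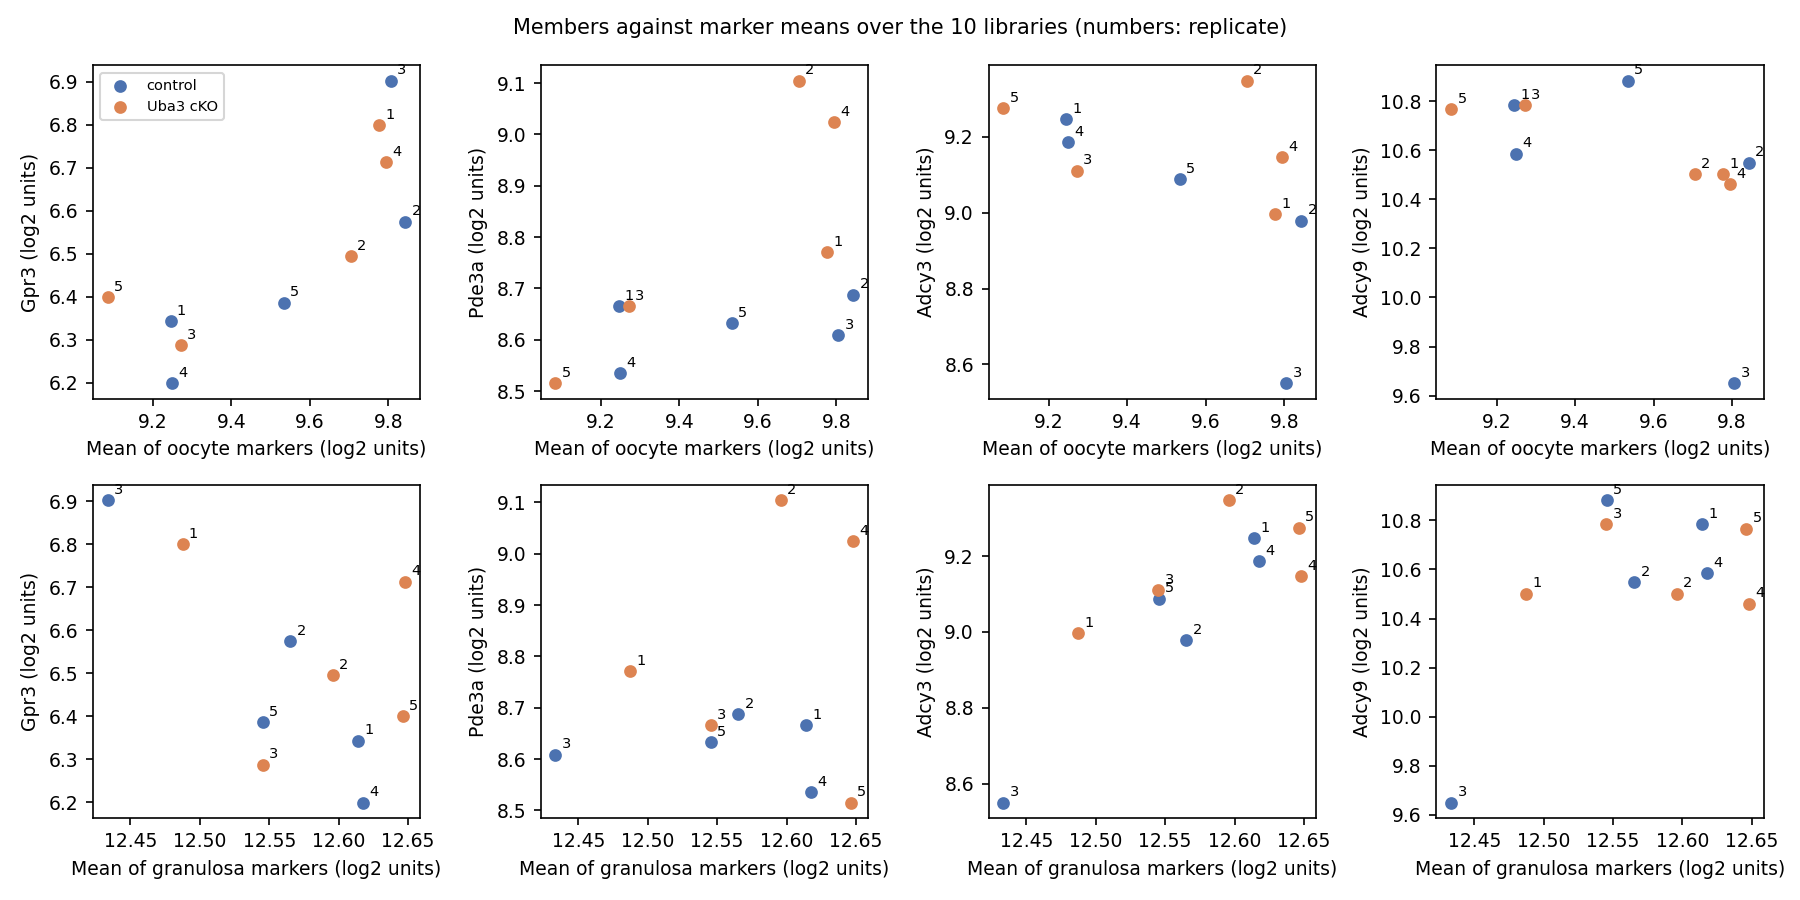
Levels of Gpr3, Pde3a, Adcy3 and Adcy9 (vertical axes, log2 units) against the mean of oocyte markers (top row) and granulosa markers (bottom row, both in log2 units) in 5 control (blue) and 5 Uba3 cKO (orange) libraries, numbered by replicate. Gpr3 is highest in libraries with high oocyte marker means, and control replicate 3 lies far below the others for Adcy3 at 8.55 and Adcy9 at 9.65.

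No relation between 2 members passed adjustment in the main setting, which does not show that the members were unrelated. Of 21 pairs, 0 had an adjusted p under 0.05 over the 10 libraries. The smallest p belonged to Gpr3 and Adcy9, which ran in opposite directions (r = -0.76, permutation p = 0.0034, adjusted p = 0.0714; rho = -0.78, permutation p = 0.0106, adjusted p = 0.222; r = -0.59 without the 2 libraries farthest from the median of Gpr3). Adcy3 and Adcy9 had the largest positive r, 0.79 (permutation p = 0.0383, adjusted p = 0.268; rho = 0.20, permutation p = 0.583, adjusted p = 0.964), which was 0.41 without the 2 farthest libraries and 0.11 without control replicate 3. Nppc and Npr2, ligand and receptor, had an r of -0.24 (permutation p = 0.506, adjusted p = 0.942; rho = -0.042, permutation p = 0.918, adjusted p = 0.964; r = 0.11 without the 2 farthest libraries).

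For each member the 3 genes with the most similar levels over the 10 libraries were sought among 9207 genes whose mean reached 8 log2 units, and r is given as a description of these libraries, which share their normalization. Gpr3 was most like Gspt2 (r = 0.96), Pgs1 (0.96) and Tfap2e (0.95). Adcy3 was most like Galnt2 (0.97), Dip2a (0.97) and 0610010F05Rik (0.96), and Adcy9 like Atg9a (0.99), Ap4e1 (0.98) and Unc13b (0.98). Without control replicate 3 these values were 0.94, 0.94 and 0.92 for Gpr3, 0.89, 0.89 and 0.90 for Adcy3, and 0.94, 0.87 and 0.87 for Adcy9. Gnas was most like Tmem263, Podxl and Mcmbp (each r = 0.95), and Pde3a like Tmcc3 (0.92), Rnf24 (0.92) and Chek1 (0.91). Nppc was most like Glo1 (0.91), 1110032F04Rik (0.91) and Gpr107 (0.90). Npr2, with its narrow range, had the lowest values, with Polh (0.91), Sfi1 (0.84) and Wdr20 (0.83).

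No other gene of the pathway passed the test. In 8 lists ordered by role, 129 of 138 other genes were found and 120 passed the filter, of which 0 passed limma over all genes (smallest adjusted p = 0.9999). Of the 120, 1 had an unadjusted p under 0.05 on the higher side in cKO-labelled ovaries and 1 on the lower side, which is 1.67% against 1.79% of all genes tested. The higher mean lay in cKO-labelled ovaries in 68 and the lower in 52, with a median difference of 0.0091 log2 units. The counts and medians given below for single lists include the members in them. Every member had the higher mean in cKO-labelled ovaries, so these list values are not separate from those of the members.

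Upstream of cyclic AMP, 7 of 16 tested receptors and G protein genes were higher on average in cKO-labelled ovaries, with a median difference of -0.0096. Per kilobase the highest were Rgs2, a GTPase activator for G protein alpha subunits, at 11.98 log2 units and Gnb2, a beta subunit, at 10.75. Ric8a, a chaperone of alpha subunits, had 9.94 ± 0.099 log2 units in controls (SD, n = 5 here and for the list genes that follow, controls first) against 9.87 ± 0.10, and Adora2b, an adenosine receptor, at 5.07 ± 0.14 and 5.17 ± 0.28. Of 11 tested cyclases and cyclase-associated proteins, Adcy3 and Adcy9 among them, 8 had the higher mean in cKO-labelled ovaries (median difference 0.064). Adcy5 stood at 8.87 ± 0.30 and 9.04 ± 0.27, a difference close to that of Adcy3 with a standard error of 0.15. Cap1, an actin regulator first known as a cyclase-associated protein, was the highest of the list per kilobase at 9.74, ahead of Adcy9 at 8.17 and Adcy6 at 7.47.

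On the cyclic GMP side, 9 of 16 tested genes were higher on average in cKO-labelled ovaries, with a median difference of 0.017. Gucy2c, the guanylyl cyclase best known as the intestinal guanylin receptor, stood low at 3.97 ± 0.10 (SD, n = 5) and 4.17 ± 0.090 (SD, n = 5), a difference of 0.20 (standard error 0.067, unadjusted p = 0.0104, adjusted p = 0.9999 by limma). Impdh2, an enzyme of guanine nucleotide synthesis, was the highest per kilobase at 10.18, just above Npr2 at 10.03, and Guk1, which phosphorylates GMP, followed at 9.27. With its longest transcript Npr2 stood at 10.38, so the order of Impdh2 and Npr2 may depend on the length used. Among 19 tested genes with phosphodiesterase names, Pde3a included, 13 had the higher mean (median difference 0.022). Pde1c stood at 3.94 ± 0.093 and 4.04 ± 0.046 and Pde6b, known from photoreceptors, at 4.99 ± 0.16 and 5.22 ± 0.35. Per kilobase Pde6d was highest at 8.31 and Pde8a, which is specific for cyclic AMP, next at 7.93.

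Kinases, anchors and effectors had the higher mean in 16 of 26 genes, with a median difference of 0.0077. Pkig, an inhibitor of protein kinase A, stood at 9.85 ± 0.19 (SD, n = 5) and 9.65 ± 0.051 (SD, n = 5), a difference of -0.20 (standard error 0.085, unadjusted p = 0.0352, adjusted p = 0.9999 by limma). The regulatory subunits of protein kinase A led the list per kilobase, with Prkar2b at 11.57 and Prkar1a at 10.38. Of 7 gap junction and export genes, 2 had the higher mean (median difference -0.026). Gja1, the connexin between granulosa cells, was the highest per kilobase at 12.65, and Gja4, the connexin between oocyte and granulosa cells, stood at 9.34 ± 0.34 and 9.23 ± 0.33. Gjb2, another connexin, stood at 3.76 ± 0.11 and 3.93 ± 0.15, and Abcc4, an exporter of cyclic nucleotides, at 8.42 ± 0.092 and 8.32 ± 0.12.

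The relay from luteinizing hormone through the EGF receptor had the higher mean in 5 of 13 tested genes, with a median difference of -0.0090. Btc, an EGF receptor ligand, had 5.61 ± 0.23 log2 units against 5.73 ± 0.17. Mapk3, at 10.05, and the phosphatase subunit gene Ppp2ca, at 9.26, were the highest per kilobase. Downstream, the switch that activates cyclin B and CDK1 had the higher mean in 15 of 20 genes (median difference 0.045). Fzr1, which directs cyclin B destruction during arrest, stood at 10.76 ± 0.12 and 10.88 ± 0.069, and Cdc20, its counterpart in division, at 10.76 ± 0.042 and 10.86 ± 0.093. Ywhab, a 14-3-3 protein, and the cyclin Ccnb2 were highest per kilobase at 10.23 and 10.09.

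**Figure D4:**
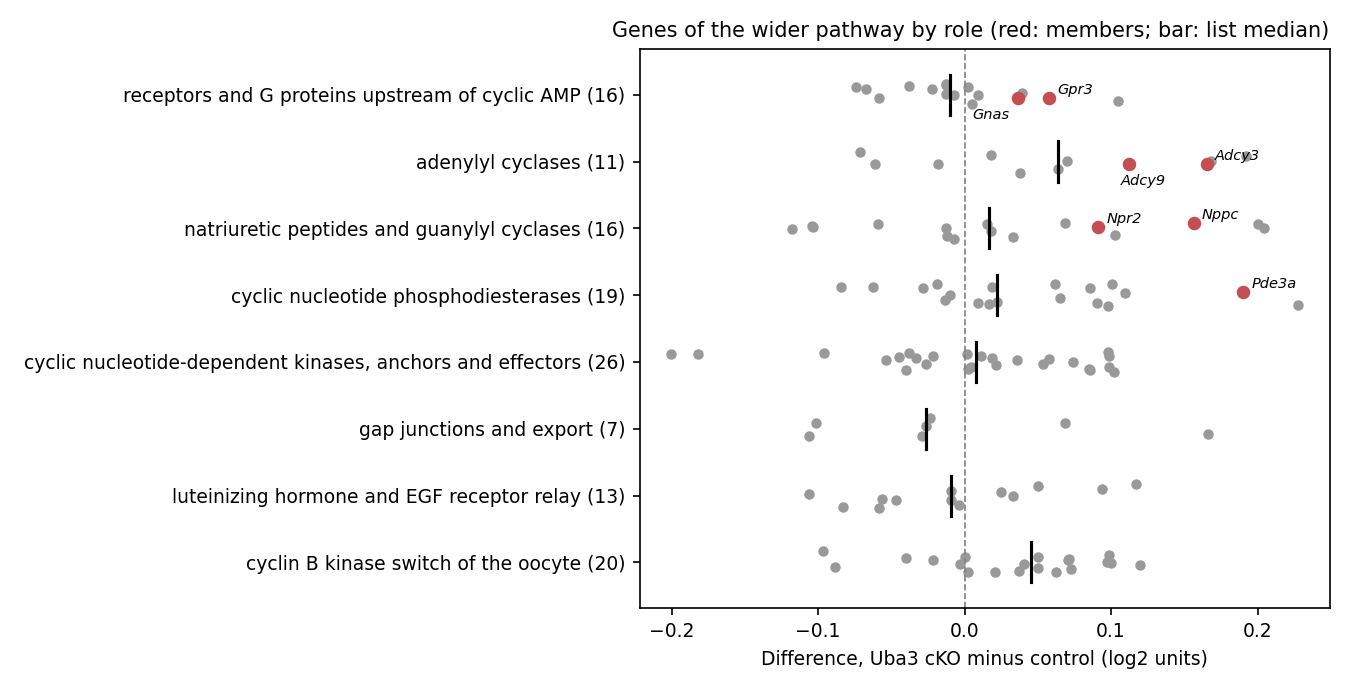
Difference between cKO-labelled ovaries and controls (horizontal axis, log2 units) for each tested gene of 8 role lists, with the number of tested genes in brackets, members in red, other genes in grey and a black bar at each list median. List medians lie between -0.026 for gap junctions and export and 0.064 for adenylyl cyclases, and the members lie to the right of 0.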

How the data were processed

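Total RNA of 10 whole ovaries was isolated with PicoPure, prepared with a TruSeq RNA kit and run on a NovaSeq, per the labels' protocols. fastp, STAR, featureCounts, DESeq2 and the build GRCm39 are named with neither versions nor roles, per the submitters' processing notes. The authors deposited 1 table of normalized values on a log2 scale, from -0.21 to 20.19, without naming the transform; lower genes may be drawn toward their mean, and the depth per library is unknown. The authors' columns were matched to samples by the names in the labels.

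Symbols were found for 22188 of 22891 identifiers; exon lengths and overlaps came from GENCODE M21 (GRCm38), so no positions of the table's genes are given, and promoter windows came from RefSeq (GRCm38.p6). Genes whose mean reached 3.32 log2 units (10 when unlogged) entered limma 3.58.1 (R 4.3.3), fitted without covariates, a trend of variance on level being allowed, with Benjamini-Hochberg adjustment at 0.05. The fit was checked on simulated data whose shifts were all larger than the members' differences. That check does not show whether differences of the members' size would be called. Intervals are at 95%. Single values were compared with the exact two-sided permutation test, whose smallest p is 0.00794; relations used 100000 permutations (SciPy 1.17.1, Python 3.11.15). The members and lists were chosen with earlier results of these data known. Named genes are the 7 members, those of each role list at an unadjusted p under 0.05 (otherwise the 2 with the smallest p), the 2 highest per kilobase, and the 3 most like each member. One gene that the rule names is not reported here. Gene lists held 9 pathway genes that were not matched and are not analysed here. Alternatives covered filters, scaling, trend, weights, covariates, the replicate block and each library left out. The replicate numbers were not treated as pairs in the main fit. Deviations of same-numbered libraries had correlations from -0.34 to 0.31, and only control replicate 5 was most like the cKO-labelled library of its own number. Such correlations cannot show whether the libraries were prepared in pairs.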

Additional observations from a re-analysis of the deposited data

Results flagged for a closer look

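In the 14 sets of 5 libraries (7 members in 2 groups), 2 had a library far from the rest by Dixon's criterion, where chance alone marks about 1 in 20. Adcy9 in control replicate 3 was 9.65 log2 units, with the nearest control at 10.55; the same library had the lowest Adcy3 and Nppc, the highest Gpr3 and the length slope of -0.15. Npr2 in cKO-labelled replicate 4 was 12.22, with the nearest library at 12.31, a small gap in a set whose other 4 values nearly coincide.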

How the results depend on the processing

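No member was called in any of the 20 alternative settings, where the lowest adjusted p was 0.9993, and the sign held for Nppc, Npr2, Pde3a and Adcy3, but not the size. With array quality weights the Nppc difference fell to 0.019 and that of Adcy3 to 0.10. Leaving out each library in turn, Nppc ran from 0.030 to 0.31, Adcy3 from 0.050 to 0.22, Npr2 from 0.055 to 0.13 and Pde3a from 0.12 to 0.27. The Adcy9 difference turned to -0.030 with array quality weights, and that of Gnas to -0.0013 with oocyte marker mean and length slope as covariates, an alternative chosen after seeing the data. Values that changed sign when a library was left out were the Adcy9 difference from -0.098 to 0.21, the Gnas difference from -0.037 to 0.15, the Gpr3 difference from -0.013 to 0.16. The group difference in the ratio of Nppc to Npr2 turned to -0.067 without control replicate 3. It was -0.029 without control replicate 5 and -0.044 without cKO-labelled replicate 5. For Adcy3 to Adcy9 it turned to -0.026 without control replicate 5 and -0.016 without cKO-labelled replicate 2. For Pde3a to Gpr3 the sign held. Leaving libraries out of the ratios was an addition to the plan. The number of genes called was 0 except with the length slope as covariate, alone or with the oocyte marker mean, where it was 1 (Dip2c, -0.66 log2 units in both, named after its value was seen). Counts at an unadjusted p under 0.05 ran from 133 with a mean of at least 50 to 660 with both covariates. In this balanced design a replicate block cannot move a difference (Nppc 0.16, Pde3a 0.19) and bears only on its error; with it 0 genes were called and 311 had an unadjusted p under 0.05.

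Without the 2 farthest libraries r was 0.87 for Gpr3 and oocyte markers (adjusted p = 0.0570 over the 14 relations) and 0.55 for Adcy3 and granulosa markers (adjusted p = 0.545), and it changed sign for Gnas and oocyte markers (0.11), Gpr3 and granulosa markers (0.24) and Adcy9 and granulosa markers (-0.41). Leaving out each library in turn, an addition made after seeing the data, r of relations whose sign or call changed ran for Npr2 to the oocyte marker mean from -0.099 to 0.41; for Gpr3 to the oocyte marker mean from 0.78 to 0.87; for Gnas to the oocyte marker mean from -0.26 to 0.20; for Gpr3 to the granulosa marker mean from -0.80 to -0.29; for Pde3a to the granulosa marker mean from -0.050 to 0.37; for Adcy3 to the granulosa marker mean from 0.68 to 0.89; for Adcy9 to the granulosa marker mean from -0.042 to 0.71. Pairs of members that changed sign without the 2 farthest libraries were Nppc and Npr2 0.11, Nppc and Pde3a 0.17, Npr2 and Gpr3 -0.56, Npr2 and Pde3a -0.19, Npr2 and Adcy3 0.48, Npr2 and Gnas -0.15, Gpr3 and Gnas 0.45, Pde3a and Adcy3 -0.23, Pde3a and Adcy9 0.0049, Pde3a and Gnas -0.84, Adcy9 and Gnas -0.24; with group means removed Gpr3 passed adjustment with Adcy3 (-0.80) and Adcy9 (-0.80), and sign changes were Npr2 and Pde3a -0.18, Npr2 and Gnas -4.0e-04. The cause was not tested. Depth is unknown, so counting error could not be given, and differences of low genes may be understated.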

Other observations

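In the list for the luteinizing hormone and EGF receptor relay, 3 of 16 genes found in the table were under the filter of 3.32 log2 units. Ereg, an EGF-like ligand, and Ptgs2, the prostaglandin synthase of ovulation, each had a mean of 2.40 log2 units over the 10 libraries, and Tnfaip6, a matrix protein of the expanding cumulus, 2.77. The other 13 passed it, among them the EGF-like ligand Btc at 5.67 and Has2, which makes hyaluronan, at 3.91. In the receptor list Gpr12, the close relative of Gpr3, had a mean of 0.64. The genes named were picked with their values in view.

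Within their enzyme families, Adcy3 and Pde3a were not the highest in the whole ovary, whereas the member Adcy9 was the highest adenylyl cyclase. Per kilobase of exon, Adcy9 (8.17 log2 units) and Adcy6 (7.47) stood above Adcy3 (6.45), with Adcy5 at 6.11 and Adcy7 at 5.41. Among genes with phosphodiesterase names, Pde6d (8.31), Pde8a (7.93), Pde7b (6.99) and Pde7a (6.61) stood above Pde3a (5.05 ± 0.20, SD over 10 libraries). Pde5a (5.27) and Pde1a (5.25) were close to Pde3a, and their order may depend on the length used. Pde3b, the other gene of the Pde3a subfamily, lay below Pde3a at 4.52. This ranking was made after the values were seen and says nothing of levels within single cells.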
